A study of Mus musculus with 11 samples.

Results

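The regions described here are promoters that carried H3K27ac and whose gene carried no H3K27me3 promoter region, in endocrine cells of the mouse pancreas. They were taken from the deposited H3K27ac table as regions annotated to a promoter, narrower than 3000 bp, whose gene has no promoter entry in the H3K27me3 table. The rule found 12784 regions at 10784 genes, out of 31479 distinct H3K27ac regions at 16450 genes. These regions are called members in what follows. The rule used the presence of a region, its width and its annotation, and no difference between genotypes.

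The chromatin was profiled by CUT&Tag, an assay in which an antibody directs a transposase to cut next to the mark or protein it binds. Isl1CKO mice were Isl1loxP/loxP;Neurod1-cre, so that the LIM homeodomain factor ISL1 is lost from cells in which the Neurod1-cre transgene has been active. Control mice were Isl1loxP/+;Neurod1-cre, so they carried the same Cre and 1 floxed Isl1 allele and were not wild type. Both genotypes were on a C57BL/6 background and carried a tdTomato reporter (Ai14) that Cre switches on, and male and female littermates were used. Endocrine cells were sorted as tdTomato-positive from pancreases at postnatal day 9, and each library came from a pool of 3 to 4 pancreases. For H3K27ac there were 2 Isl1CKO and 2 Control libraries, and for H3K27me3 likewise. ISL1 itself was profiled in Control cells at P9 (1 library) and at E14.5 (2 libraries deposited as a single column). A pool mixes alpha, beta, delta and PP cells, so fewer cells of a type and less signal per cell cannot be told apart.

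H3K27ac is acetylation of lysine 27 on histone H3, placed by the acetyltransferases CBP and p300 at active promoters and enhancers. H3K27me3 is methylation of the same lysine by the EZH1 and EZH2 enzymes of Polycomb repressive complex PRC2, and it covers many developmental genes that a cell type keeps silent or has ready for use. Since a single lysine cannot carry both modifications, a promoter found with both marks in a pool of cells holds them on different copies of H3. These copies may lie in different nucleosomes, alleles or cells. Promoters of housekeeping genes typically carry acetylation alone.

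To show what the DNA of such promoters looks like, the promoter windows of 9 member genes are printed, each reaching from 250 bases before to 50 bases after the annotated gene start. The sequences are RefSeq's on build GRCm38.p6, read 5′ to 3′ on the strand of the gene, with every CpG dinucleotide in capitals. The 5 windows given at once are rich in CpG. They belong to Klc1 and Chgb, among the most strongly acetylated members, to Rpl19, a ribosomal protein gene, and to Wdr18 and Zfp94, which are among the members with the smallest p between genotypes.
Klc1: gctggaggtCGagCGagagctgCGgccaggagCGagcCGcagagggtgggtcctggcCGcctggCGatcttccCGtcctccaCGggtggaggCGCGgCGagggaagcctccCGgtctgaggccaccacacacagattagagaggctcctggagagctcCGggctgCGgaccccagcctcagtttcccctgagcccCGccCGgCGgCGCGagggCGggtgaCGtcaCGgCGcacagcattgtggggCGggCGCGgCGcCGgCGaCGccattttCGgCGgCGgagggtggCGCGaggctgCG
Chgb: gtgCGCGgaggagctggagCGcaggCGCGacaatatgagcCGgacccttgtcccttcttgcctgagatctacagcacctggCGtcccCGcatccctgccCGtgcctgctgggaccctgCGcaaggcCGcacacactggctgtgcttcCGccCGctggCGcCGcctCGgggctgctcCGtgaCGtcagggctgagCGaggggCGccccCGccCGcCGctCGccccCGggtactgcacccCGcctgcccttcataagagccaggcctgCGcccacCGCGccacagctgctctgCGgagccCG
Rpl19: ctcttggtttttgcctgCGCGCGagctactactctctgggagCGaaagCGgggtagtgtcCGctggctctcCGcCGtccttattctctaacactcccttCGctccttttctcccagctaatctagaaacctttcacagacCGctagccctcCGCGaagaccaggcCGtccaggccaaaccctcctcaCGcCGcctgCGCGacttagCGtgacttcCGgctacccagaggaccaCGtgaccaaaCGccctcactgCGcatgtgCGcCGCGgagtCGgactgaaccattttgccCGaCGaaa
Wdr18: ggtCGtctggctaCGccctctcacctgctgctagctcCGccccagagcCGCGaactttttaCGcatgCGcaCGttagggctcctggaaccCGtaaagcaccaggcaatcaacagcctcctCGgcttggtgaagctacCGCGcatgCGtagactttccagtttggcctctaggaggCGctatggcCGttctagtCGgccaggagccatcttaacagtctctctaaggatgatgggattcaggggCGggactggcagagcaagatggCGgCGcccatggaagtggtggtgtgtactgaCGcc
Zfp94: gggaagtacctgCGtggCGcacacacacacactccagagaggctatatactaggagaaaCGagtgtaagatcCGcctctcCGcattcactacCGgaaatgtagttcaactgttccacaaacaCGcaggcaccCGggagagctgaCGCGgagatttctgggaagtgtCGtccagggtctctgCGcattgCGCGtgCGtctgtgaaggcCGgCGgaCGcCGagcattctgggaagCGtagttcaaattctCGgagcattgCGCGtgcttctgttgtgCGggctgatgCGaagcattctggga

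The Klc1 window (chr12:111758618-111758917, plus strand) held 37 CpG dinucleotides, a GC content of 73.7% and the cyclic AMP response element TGACGTCA starting 33 bases before the gene start. The Chgb window (chr2:132781392-132781691, plus strand) held 31 CpG dinucleotides, and its TGACGTCA began 72 bases before the start. Rpl19 (chr11:98026460-98026759, plus strand) held 28, and Wdr18 (chr10:79959902-79960201, plus strand) held 20 with the NRF1 core GCATGCG at 2 places. Zfp94 (chr7:24316617-24316916, minus strand) held 25 and none of the 12 motifs searched.

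The other 4 windows are poor in CpG, so genes with a member were not limited to CpG-rich starts. Whether a printed window lies under the acetylated region of its gene was not checked. The regions of Ucn3 lie 944 and 1948 bp from the start, outside its window. These windows belong to Rfx6, an islet transcription factor gene with strong acetylation, to Il17re, higher in both Isl1CKO libraries, and to the beta cell hormone genes Ucn3 and Ins1.
Rfx6: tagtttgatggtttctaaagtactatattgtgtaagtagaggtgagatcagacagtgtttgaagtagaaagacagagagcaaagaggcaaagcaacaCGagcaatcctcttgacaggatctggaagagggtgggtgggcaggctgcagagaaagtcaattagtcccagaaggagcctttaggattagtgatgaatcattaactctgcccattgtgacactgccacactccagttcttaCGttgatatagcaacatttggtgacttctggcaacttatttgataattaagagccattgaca
Il17re: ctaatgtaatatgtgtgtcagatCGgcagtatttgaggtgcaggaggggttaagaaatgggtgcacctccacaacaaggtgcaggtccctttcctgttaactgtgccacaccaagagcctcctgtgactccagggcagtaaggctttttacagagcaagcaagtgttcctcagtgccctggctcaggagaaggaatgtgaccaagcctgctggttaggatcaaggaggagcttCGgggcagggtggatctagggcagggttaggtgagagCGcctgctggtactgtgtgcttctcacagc
Ucn3: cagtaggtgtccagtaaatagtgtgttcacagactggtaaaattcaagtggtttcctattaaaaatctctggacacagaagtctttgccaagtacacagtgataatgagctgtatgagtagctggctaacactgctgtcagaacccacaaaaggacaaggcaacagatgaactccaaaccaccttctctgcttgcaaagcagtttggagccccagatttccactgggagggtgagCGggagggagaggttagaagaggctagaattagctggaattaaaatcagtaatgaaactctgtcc
Ins1: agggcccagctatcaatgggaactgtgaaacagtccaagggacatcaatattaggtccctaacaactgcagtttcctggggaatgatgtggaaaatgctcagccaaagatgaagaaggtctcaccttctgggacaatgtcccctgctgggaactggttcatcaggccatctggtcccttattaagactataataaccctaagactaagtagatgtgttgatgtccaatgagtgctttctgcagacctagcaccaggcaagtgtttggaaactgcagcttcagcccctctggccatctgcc

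The Rfx6 window (chr10:51685268-51685567, plus strand) held 2 CpG dinucleotides and a GC content of 42.3%. Il17re (chr6:113458521-113458820, plus strand) held 3 and the letters CTAATG, a sequence recognised by LIM homeodomain factors, at its upstream edge. Ucn3 (chr13:3945300-3945599, minus strand) held 1, and Ins1 (chr19:52264047-52264346, plus strand) held 0. The letters CAGATG, an E-box of the NeuroD type, were present in the windows of Ucn3 and Ins1.

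Over all members with a window the CpG-rich kind predominated. Of the 10784 member genes, 7101 (65.8%) matched a RefSeq window by symbol, which is too few to describe all of them, so composition was read over protein-coding genes. These made up 7829 of the 9147 member genes with a RefSeq gene class (85.6%), and 6358 of them (81.2%) had a window. Their windows held a median of 21 CpG dinucleotides (interquartile range 14 to 29) and a GC content of 61.3%, against 13 and 56.3% over all 17492 protein-coding windows. A ratio of observed to expected CpG above 0.6, a usual mark of a CpG island, was reached by 75.4% of member windows and by 48.3% of all windows. CpG richness was not particular to members. Genes of promoters of 3000 bp or more without H3K27me3 and without a member had 210 windows (80.2% of such protein-coding genes). These held a median of 25 CpG dinucleotides and a GC content of 65.7%, and 72.4% were above 0.6. For genes with both marks only 74.8% had a window, so no composition is given for them.

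Motif letters followed the same division. The ETS letters CCGGAAG were found on either strand in 19.0% of member windows and in 11.9% of all protein-coding windows of the same length, GGGCGG (GC box) in 67.2% and 46.3%, GCATGCG (NRF1) in 7.23% and 4.49%, and ATGGCGGC (YY1) in 5.17% and 3.19%. The letters CACGTG (E-box) were in 10.5% of member windows and in 7.90% of all windows, and TGACGTCA in 3.49% and 2.34%. The TATA box letters TATAAA were in 6.20% of member windows, against 13.3% of all windows. At genes of promoters of 3000 bp or more without a member, TATAAA was in 6.67% of windows, GGGCGG in 72.9% and CCGGAAG in 9.52%. CCAAT differed little, at 38.5% and 39.0%, and TGTTTAC (FOXA) stood at 2.33% and 2.94%. Of letters bound by islet homeodomain and NeuroD factors, CTAATG was in 4.40% of member windows and 6.58% of all, TAATTA in 2.25% and 4.68%, and CAGATG in 10.7% and 14.8%. CACGTG and TGACGTCA read the same on both strands. The letters for ETS, the GC box, NRF1, YY1, the E-box CACGTG and the cyclic AMP response element each contain a CpG, so their shares are not independent of CpG content.

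Among the member genes with a window and a region within 1 kb of the start, the acetylated stretch was wider in the 2 classes with most CpG. Median widths were 1190 bp for windows with 0 to 5 CpG dinucleotides (361 genes), 1160 bp for 6 to 15 (1295 genes), 1283 bp for 16 to 25 (2184 genes) and 1560 bp for more than 25 (2121 genes). The median H3K27ac level per length, in scaled CPM per kb (CPM being the counts of a region scaled to a common library size), was 26.2, 28.6, 30.7 and 33.9 in the same order. Genes with TATAAA in the window had 30.1 CPM per kb (352 genes) and those without it 31.2 (5609 genes).

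The 4 H3K27ac libraries differed in depth and 1 of them stood apart. Counts in all regions were 681047 and 1441926 in Isl1CKO replicates 1 and 2, and 1307049 and 1815511 in Control replicates 1 and 2. Members took 53.9% and 52.6% of them in Isl1CKO libraries, and 53.6% and 47.9% in Control libraries. Over the 12556 members that passed the filter on low counts, Control replicate 2 correlated with each of the other libraries at 0.527 to 0.574 on the log2 scale, while the other 3 correlated with each other at 0.738 to 0.759. A count of 0 was found for 206 and 49 members in Isl1CKO replicates 1 and 2 and for 60 and 69 in Control replicates 1 and 2.

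The targeted gene itself was among the members. The promoter region of Isl1 (ENSMUSG00000042258, chr13:116445217-116447343, GRCm39) had 45.6 and 45.7 CPM in Isl1CKO libraries, against 63.3 and 42.8 CPM in Control libraries. The genotypes overlapped there, with a log2 fold change of Isl1CKO over Control of -0.21 ± 0.48 (SE, n = 2 each, adjusted p = 0.967, edgeR quasi-likelihood test). Of the 7 H3K27ac regions assigned to Isl1, the region in intron 3 (chr13:116440265-116441140), which is not a member, had the lowest log2 fold change. It had 7.61 and 2.81 CPM in Isl1CKO libraries, against 19.3 and 21.9 CPM in Control libraries (log2 fold change -2.05 ± 1.03, adjusted p = 0.865). The regions in exon 3 and exon 5 and a distal region were above 0, at 0.47, 0.24 and 0.26. The other distal regions were at -0.99 and -0.76. H3K27ac at the promoter does not measure the floxed exon, so it checks no label.

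Markers of cell types outside the endocrine gate were mostly without a member. None of 10 endothelial and none of 11 mesenchymal markers named in the tables had one, and 1 of 12 acinar, 1 of 9 immune and 1 of 8 glial markers did. These 3 were Bhlha15, an acinar transcription factor that other secretory cells also use, Cd79a of B lymphocytes and Erbb3 of glia. Ductal markers were the exception, with 7 of 12 (Krt7, Krt18, Sox9, Muc1, Epcam, Hes1 and Anxa4), several of which islet or other epithelial cells also express. Sums were taken over all H3K27ac promoter regions of each list, whether members or not. Ductal markers had 417 and 530 CPM in Isl1CKO libraries, against 572 and 486 CPM in Control libraries. The beta cell list, from 15 genes of which 7 had a member, had 1015 and 845 CPM in Isl1CKO libraries. In Control libraries it had 1349 and 1347 CPM. The endothelial list had 68.5 and 56.9 CPM in Isl1CKO libraries, against 40.9 and 17.0 CPM in Control libraries, all from 1 gene. The glial list, from 2 genes, had 103 and 123 CPM in Isl1CKO libraries, against 81.0 and 75.6 CPM in Control libraries. The genotypes overlapped in the ductal list and in the lists that follow. Alpha, delta and PP cell genes had 246 and 214 CPM in Isl1CKO libraries, against 359 and 189 CPM in Control libraries. In the same order, acinar markers had 85.2 and 120 against 102 and 60.8 CPM. Mesenchymal markers had 18.3 and 8.43 against 19.3 and 2.74 CPM, and immune markers 16.7 and 43.6 against 37.1 and 7.13 CPM. The part of these differences in the results on genotype was not tested.

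Members were short regions laid over the gene start. Their median width was 1198.5 bp (interquartile range 849 to 1666), and 10466 of them (81.9%) were annotated within 1 kb of a start, 1290 (10.1%) at 1 to 2 kb and 1028 (8.04%) at 2 to 3 kb. Of those within 1 kb, 8668 (82.8%) spanned the start itself, against 69.1% of promoters with both marks and 94.3% of promoters of 3000 bp or more. In the 8668 members that spanned the start, the median upstream edge lay at position -457 and the median downstream edge at position 830 relative to it. Over all 10466 members within 1 kb, the median centre lay 204 bp inside the gene. The widths nearest the limit were 2989 to 2992 bp for the 3 widest members, with 463 to 727 counts in all, and 3000 to 3006 bp for the 3 narrowest regions left out, with 401 to 537 counts.

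**Figure D1:**
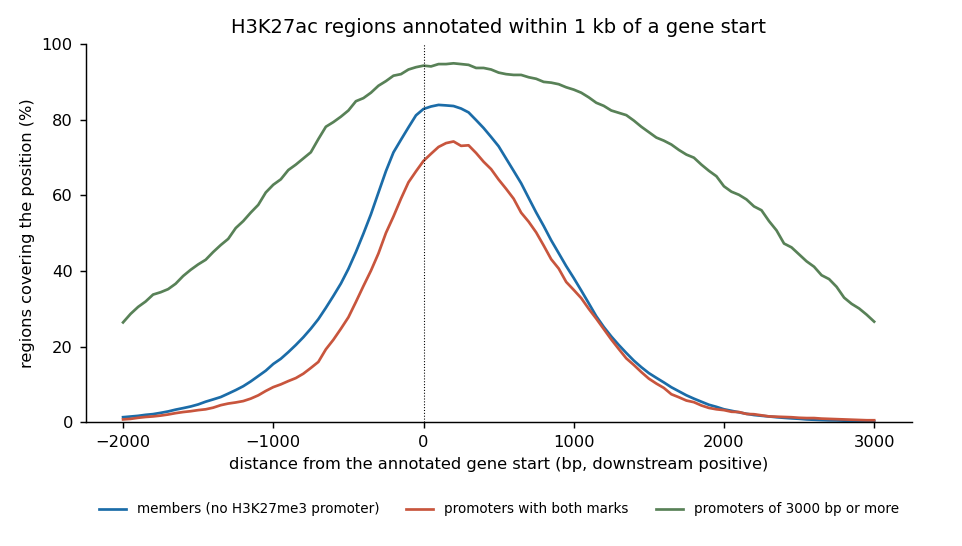
Share of H3K27ac regions annotated within 1 kb of a gene start (y axis, %) that cover each position from 2000 bp before to 3000 bp after the start (x axis), for members, for promoters under 3000 bp whose gene has an H3K27me3 promoter region, and for promoters of 3000 bp or more without one. Coverage by members peaks at 83.9% at 100 bp after the start and falls to 15.4% at 1000 bp before it and 38.1% at 1000 bp after it.

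Most genes had a single member. There were 9085 such genes, 1436 genes with 2 members, 228 with 3, 32 with 4 and 3 with 5 (Ajm1, Mir3080 and Mir7662). More than 1 gene entry overlapped 4557 members (35.6%), against 21.6% of promoters with both marks, and the tables assign each region to a single gene. A gene with no entry may therefore share a region that is listed under its neighbour.

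Acetylation per length was higher in members than at promoters with both marks. The median level was 26.9 CPM per kb in members (interquartile range 19.6 to 37.2), 20.2 at the 1654 promoters with both marks, 35.96 at the 532 promoters of 3000 bp or more and 18.8 at the 16486 regions outside promoters. Within members, regions annotated within 1 kb of a start had a median of 29.1 CPM per kb, those at 1 to 2 kb 18.9 and those at 2 to 3 kb 18.8. These are descriptions of regions that share the same 4 libraries, and no test was made between classes.

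The rule reads absence of H3K27me3 by gene name, so positions were checked as well. By coordinates, 116 members (0.907%) overlapped an H3K27me3 region by at least 1 bp, 112 of them a promoter region that the tables list under another gene. Among promoters with both marks 83.7% overlapped one. The 111 overlapping members that were tested had a median of 18.9 CPM per kb and a median log2 fold change of -0.26, against 27.01 and 0.07 in the 12445 tested members without overlap. Away from promoters, 632 member genes (5.86%) had an H3K27me3 region, most often distal (718 of 1298 regions) or in an intron (324). These regions had a median of 11.0 CPM, against 13.5 over all H3K27me3 regions, and none passed the edgeR test, while 51 (4.10% of those tested) had an unadjusted p under 0.05. Over all 19434 tested H3K27me3 regions 0 passed and 843 (4.34%) had an unadjusted p under 0.05.

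The 6 highest levels per length, among members of at least 500 bp, lay between 98.8 and 117 CPM per kb. Dis3l, an exonuclease of the RNA exosome, led with 117 CPM per kb. It had 155 and 181 CPM in Isl1CKO libraries, against 215 and 212 CPM in Control libraries. Both Isl1CKO libraries were below both Control libraries, but the log2 fold change of -0.34 ± 0.27 did not pass the edgeR test (adjusted p = 0.913). Zbed5-ps, a pseudogene entry, had 116 CPM per kb, Cpsf2 of the polyadenylation complex 106, Klc1, a kinesin light chain, 106, Ube3a, a ubiquitin ligase, 98.9, and Hexim2, an inhibitor of the elongation factor P-TEFb, 98.8. Klc1 had 237 and 243 CPM in Isl1CKO libraries, against 225 and 266 CPM in Control libraries, so the genotypes overlapped (log2 fold change -0.03 ± 0.25). Of these 6, Zbed5-ps had both Isl1CKO libraries above both Control libraries, and Dis3l and Hexim2 both below.

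Gene lists differed in how the marks were shared out. By the rule, a gene with an H3K27me3 promoter region cannot have a member, so each share limits the other. The lists were chosen with earlier results of these data known, and shares are of list genes named in any of the deposited tables, where 10784 of 31659 genes (34.1%) had a member and 4947 (15.6%) an H3K27me3 promoter region. Of 30 proteasome genes, 24 had a member and 0 an H3K27me3 promoter, and for cytosolic ribosomal proteins the numbers were 21 and 0 of 30. Respiratory chain genes had 21 of 28 with a member, and splicing genes had 17 of 27 with a member and 0 with H3K27me3. Chromatin regulators had 20 of 31 with a member, among them Ezh1, Ezh2 and Suz12 of PRC2, the demethylase Kdm6a and the acetyltransferase Crebbp, and 1 with H3K27me3 (Tet3). Genes of protein folding in the endoplasmic reticulum had 13 of 25 with a member and 0 with H3K27me3.

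Beta cell genes had a member about as often as all genes (35.0%, against 34.1%) and an H3K27me3 promoter in 40.0%, against 15.6% of all genes, and no test was made of these shares. Of 20 beta cell genes, 7 had a member (among them Ins1, Nkx6-1, Ucn3, Slc30a8, Ero1b and Sytl4) and 8 an H3K27me3 promoter (Mafa, Pdx1, Slc2a2, Abcc8, Kcnj11, Glp1r, Prlr and Npy). Of these 8, all but Npy also had an H3K27ac promoter region, which the rule keeps out of the members. Of 18 alpha, delta and PP cell genes, 5 had a member (Irx2, Ttr, Slc7a2, Rbp4 and Ppy) and 8 an H3K27me3 promoter, among them Sst and Pyy. Islet transcription factors had 11 of 25 with a member (Isl1, Neurod1, Nkx2-2, Myt1, Rfx3, Rfx6, Foxa2, Hnf4a, Gata6, Meis2 and Etv1) and 7 with H3K27me3 (Pax6, Pax4, Foxa1, Gata4, Glis3, Mnx1 and Meis1). The same 2 numbers were 13 of 21 and 4 of 21 for genes of hormone secretion. They were 10 of 18 and 3 of 18 for prohormone processing, 11 of 24 and 6 of 24 for immediate early genes, and 15 of 26 and 2 of 26 for cell cycle genes. Ins2, Gcg and Hspa5 are listed with no H3K27ac region, which with 1 gene per region does not show that their promoters lacked it.

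**Figure D2:**
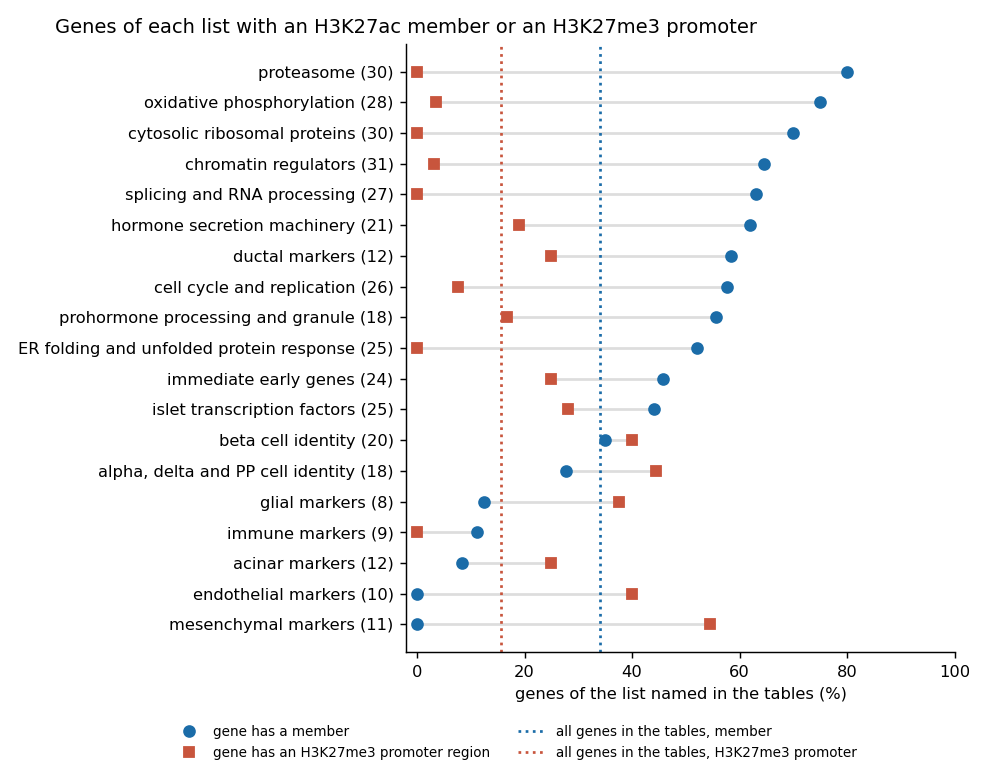
Share of the genes of each list (x axis, % of list genes named in the tables, whose number stands in parentheses) that have a member (circles) or an H3K27me3 promoter region (squares), with dotted lines for all genes in the tables. Proteasome genes stand at 80.0% and 0%, beta cell genes at 35.0% and 40.0%, and all genes at 34.1% and 15.6%. By the rule, no gene can count in both shares.

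Among the members of the lists, the strongest promoters of secretory genes had levels near those of housekeeping genes. Only members were ranked, so promoters of 3000 bp or more and those with both marks were not compared. Chgb, chromogranin B of the secretory granule (chr2:132622910-132624149), had 91.3 CPM per kb, against 65.5 at Rpl19 and 63.1 at Psmd1 of the proteasome. It had 97.4 and 117 CPM in Isl1CKO libraries, against 125 and 113 CPM in Control libraries, and the genotypes overlapped (log2 fold change -0.14 ± 0.33). Rims2 and Vamp2 of the vesicle fusion machinery had 61.2 and 59.6 CPM per kb, and Ica1, an islet autoantigen, 58.2. Among transcription factors, Rfx6, needed for islet cell differentiation, had 67.5 and Nkx2-2, which maintains beta cells, 50.2 CPM per kb. Rfx6 had 135 and 114 CPM in Isl1CKO libraries, against 116 and 70.7 CPM in Control libraries, and again the genotypes overlapped (log2 fold change 0.42 ± 0.36). By contrast, Ins1 had 23.1 and the promoter region of Ucn3 12.3 CPM per kb.

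Between genotypes, no member passed the test. In the edgeR quasi-likelihood test with Benjamini-Hochberg adjustment over all 30036 tested regions, 0 of 12556 members reached an adjusted p of 0.05, where 0% of all regions did. The smallest adjusted p was 0.734. At an unadjusted p under 0.05, 370 members (2.95%) were higher in Isl1CKO and 244 (1.94%) lower, against 2.71% and 3.12% of all regions. Both Isl1CKO libraries lay above both Control libraries in 2551 members (20.3%) and below both in 2010 (16.01%), against 18.1% and 19.4% of all regions. DESeq2 called 13 of the 11602 members it gave an adjusted p (0.112%), 10 higher and 3 lower in Isl1CKO, against 0.114% of all regions. Without Control replicate 1 edgeR called 441 members (3.51%), against 3% of all regions. Without Control replicate 2 it called 4 (0.0319%), against 0.0499% of all regions. These fits have 1 Control library, which is assumed to vary like the Isl1CKO pair, and the count depends on which one is kept.

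The authors' deposited table lists more members as different, and its balance is another. Its adjusted p was under 0.05 for 4247 members higher in Isl1CKO (33.2%), against 27.8% of all regions, and for 562 members lower (4.40%), against 9.25% of all regions. The log2 fold changes in that table imply library sizes which, applied here, shift the median log2 fold change of all regions to 0.57, against -0.03 with TMM factors, and that of members to 0.67, against 0.07. Under those sizes 3 members (0.0239%) passed the edgeR test, against 0.0266% of all regions. Both Isl1CKO libraries then lay above both Control libraries in 4738 members (37.7%), against 33.8% of all regions, and below in 591 (4.71%), against 7.72%. The log2 fold changes of Dis3l, Klc1, Chgb and Isl1, all below 0 with TMM factors, were 0.25, 0.60, 0.43 and 0.37 under those sizes. Of 63 fold changes of single members recomputed under each alternative, 30 had the other sign in at least 1, and none of these 30 was more than 1.04 from 0.

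The median log2 fold change of members was slightly above that of all regions. It was 0.07, against -0.21 at promoters with both marks, 0.22 at promoters of 3000 bp or more, -0.14 outside promoters and -0.03 over all regions. Members stood above promoters with both marks under each of 4 other scalings, but at 0.01 against 0.03 over all regions without Control replicate 2. The medians went with the level and were -0.25, 0.04, 0.12 and 0.18 from the lowest to the highest quartile of mean CPM, and regions lying above in Isl1CKO made up 13.7%, 18.6%, 21.9% and 27.1% of these quartiles. With offsets fitted along abundance the median of members was 0.01 and that of all regions -0.004. The share of all H3K27ac counts that fell in members was 53.3 ± 0.913% in Isl1CKO libraries and 50.8 ± 3.99% in Control libraries (SD, n = 2 each), a difference of 2.54 points that did not exceed the spread between replicates (exact permutation test, two-sided p = 0.667, where 2 against 2 libraries cannot go below 0.333). Without Control replicate 2 the difference was -0.279 points.

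**Figure D3:**
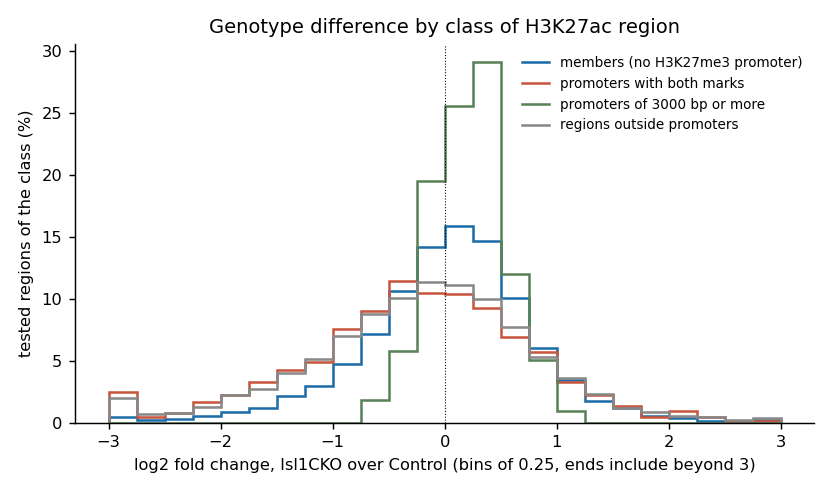
Distribution of the log2 fold change of H3K27ac (x axis, Isl1CKO over Control, edgeR with TMM factors) over the tested regions of each class (y axis, % of the class in bins of 0.25). The medians are 0.07 for members, -0.21 for promoters with both marks, 0.22 for promoters of 3000 bp or more and -0.14 for regions outside promoters, and the distributions overlap widely.

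Of the 6 members with the smallest p and higher values in Isl1CKO, 4 were below the median level of members per kb. That level averages all 4 libraries, so the low Control values by which these members were chosen also lower it. It does not show that they were weak promoters in Isl1CKO cells. C1qtnf5, which encodes a C1q/TNF-related protein (chr9:44016856-44017841), had 15.2 and 39.4 CPM in Isl1CKO libraries, against 0 and 0 CPM in Control libraries. This region lay 701 bp before the annotated start of C1qtnf5 and overlapped 3 gene entries. With a floor of 3 counts over both Control libraries together, it was at least 32.4-fold higher, a limit that covers counting error only. Gm15122, a predicted gene (chr10:80118702-80119302), had 21.3 and 25.3 CPM in Isl1CKO libraries, against 0 and 0 CPM in Control libraries, and was at least 24.5-fold higher. The regions of Gm15122 and 4933432I09Rik each overlapped 2 gene entries. In 4933432I09Rik (chr16:18031522-18032437) 15 and 57 counts in Isl1CKO libraries stood against 0 and 3 in Control libraries, a ratio of 35.3 after scaling with a 95% counting interval of 11.6 to 175.2. The DESeq2 adjusted p was 0.0296, 0.0302 and 0.0348 for these 3 genes, and 0.745, 0.838 and 0.838 in edgeR.

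Il17re, a subunit of the receptor for interleukin 17C (chr6:113435326-113436515), had 50.2 and 71.7 CPM in Isl1CKO libraries, against 11.6 and 8.77 CPM in Control libraries. The genotypes did not overlap, by the rule that chose the gene. Its log2 fold change was 2.59 ± 0.60 (SE, edgeR adjusted p = 0.838, DESeq2 adjusted p = 0.0302). Wdr18, a WD repeat protein of ribosome maturation (chr10:79795760-79796811), had 33.5 and 37.2 CPM in Isl1CKO libraries, against 2.32 and 3.84 CPM in Control libraries. Its log2 fold change was 3.46 ± 0.84, and its region lies 322 kb from that of Gm15122, which was looked up after the values were seen. Pld1, phospholipase D1, which makes phosphatidic acid (chr3:27992470-27993714), had 83.7 and 67.5 CPM in Isl1CKO libraries, against 13.1 and 20.3 CPM in Control libraries, a log2 fold change of 2.15 ± 0.53. With 37.1 CPM per kb it was the strongest of these 6 promoters.

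Among members lower in Isl1CKO, Zfp94, a zinc finger gene (chr7:24015660-24016469), had 3.04 and 1.41 CPM in Isl1CKO libraries, against 31.6 and 60.3 CPM in Control libraries. Its log2 fold change of -4.46 ± 0.88 had the smallest p of all members (edgeR adjusted p = 0.734, DESeq2 adjusted p = 0.0273). The non-coding entry 1700029M03Rik (chr1:164788900-164791159) had 3.04 and 2.11 CPM in Isl1CKO libraries, against 47.9 and 32.3 CPM in Control libraries. Aox1, an aldehyde oxidase (chr1:58068798-58069450), had 0 and 0 CPM in Isl1CKO libraries, against 10.8 and 36.2 CPM in Control libraries, and was at least 18.1-fold lower with the same floor over both Isl1CKO libraries. Gm15734 (chr5:9315527-9316958) had 10.6 and 17.6 CPM in Isl1CKO libraries, against 94.2 and 55.4 CPM in Control libraries, a log2 fold change of -2.35 ± 0.57. Its region overlapped 2 gene entries. Gle1, a factor of mRNA export (chr2:29825018-29825632), had 3.04 and 1.41 CPM in Isl1CKO libraries, against 27.02 and 34.0 CPM in Control libraries. None of these 5 overlapped between genotypes, by the rule that chose them. The DESeq2 adjusted p was 0.0333 for 1700029M03Rik, 0.0620 for Aox1, 0.0360 for Gm15734 and 0.0846 for Gle1.

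Ucn3, urocortin 3, a peptide that mature beta cells secrete and that acts on delta cells, had 2 members and both had few or no counts in Isl1CKO. The region 1 to 2 kb from the start (chr13:3992584-3993401) had 0 and 0 CPM in Isl1CKO libraries, against 18.5 and 20.8 CPM in Control libraries, and was at least 14.1-fold lower. The region within 1 kb (chr13:3993538-3994405) had 0 and 7.03 CPM in Isl1CKO libraries, against 17.0 and 18.6 CPM in Control libraries (log2 fold change -2.13 ± 1.23, edgeR adjusted p = 0.886). The genotypes did not overlap in either region, for the distal one by the rule that chose it. Neither region passed the test (edgeR adjusted p = 0.838 for the distal one). The counts behind the distal region were 24 and 38 in Control libraries.

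**Figure D4:**
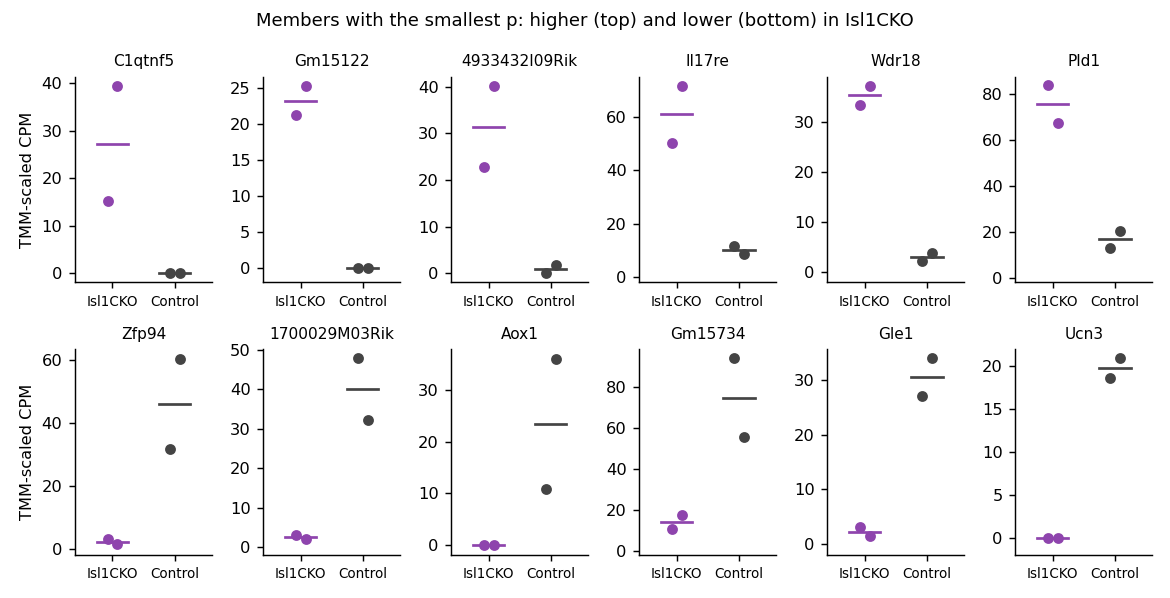
H3K27ac in TMM-scaled CPM (y axis) of the 6 members with the smallest p among those higher (top row) and lower (bottom row) in Isl1CKO, with a point per library and a bar at the mean of the 2 libraries of each genotype. The genotypes do not overlap in any panel, by the rule that chose them, and C1qtnf5 and Gm15122 are at 0 in both Control libraries, Aox1 and Ucn3 at 0 in both Isl1CKO libraries.

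Counted by list, with the strongest member of each gene, 0 genes passed the edgeR test. An unadjusted p under 0.05 was found for 2 folding genes of the endoplasmic reticulum (Calr and Sdf2l1) and for 1 gene each of the immediate early (Sik1), proteasome (Psmc6) and cell cycle lists (Mcm4). That p was reached by 4.89% of all tested members and 5.83% of all regions. The lists are described by direction beside the 10652 tested member genes, of which 55.7% were above 0 with a median log2 fold change of 0.09, 20.8% had both Isl1CKO libraries above both Control libraries and 15.4% both below. Of 7 beta cell genes, 1 was above 0 and 6 below, with a median of -0.67 that was also below 0 under each other scaling (-0.71 to -0.13) and without Control replicate 2 (-0.66). Their values ran between -2.13 at Ucn3 and 0.85 at Slc30a8. Ins1, 1 of the insulin genes, had 4.56 and 9.84 CPM in Isl1CKO libraries, against 5.40 and 25.2 CPM in Control libraries, so the genotypes overlapped, and its log2 fold change of -1.04 ± 1.10 was 0.45 without Control replicate 2. Ero1b, which forms disulphide bonds in proinsulin, had 60.9 and 42.2 CPM in Isl1CKO libraries, against 79.5 and 39.5 CPM in Control libraries. The alpha, delta and PP list had 2 of 5 above 0 and a median of -0.31, which was 0.26 under the sizes that the authors' deposited table implies. Ppy, pancreatic polypeptide, had 3.04 and 17.6 CPM in Isl1CKO libraries, against 16.2 and 35.1 CPM in Control libraries.

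Among regulators and secretory genes the values were mixed. Islet transcription factors had 6 of 11 above 0 and a median of 0.23, which was -0.03 without Control replicate 2. Foxa2, a pioneer factor, had 7.61 and 26.0 CPM in Isl1CKO libraries, against 6.18 and 6.58 CPM in Control libraries at a region 1 to 2 kb from its start. Hnf4a, a nuclear receptor, had 35.0 and 33.7 CPM in Isl1CKO libraries, against 51.7 and 56.5 CPM in Control libraries (log2 fold change -0.66 ± 0.50, edgeR adjusted p = 0.912). Genes of hormone secretion had 7 of 13 above 0 and a median of 0.00 (0.68 under the authors' implied sizes and -0.19 with offsets fitted along abundance). Nsf, the ATPase that takes apart used SNARE complexes, had 97.4 and 55.5 CPM in Isl1CKO libraries, against 45.5 and 31.8 CPM in Control libraries (0.97 ± 0.48), and Rph3al, a Rab effector, 38.0 and 42.9 CPM in Isl1CKO libraries, against 70.2 and 60.8 CPM in Control libraries (-0.69 ± 0.46). In both the genotypes did not overlap, and neither passed the test.

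Prohormone processing genes had 8 of 10 above 0 and a median of 0.29, which stayed above 0 under each other scaling and without Control replicate 2. Resp18, a granule protein, had 21.3 and 46.4 CPM in Isl1CKO libraries, against 18.5 and 5.48 CPM in Control libraries. Pcsk2, the convertase that cuts proglucagon and proinsulin, had 86.7 and 58.3 CPM in Isl1CKO libraries, against 72.6 and 18.1 CPM in Control libraries, and its log2 fold change of 0.68 ± 0.57 was -0.03 without Control replicate 2. Of 13 folding genes of the endoplasmic reticulum, 10 were above 0, 7 with both Isl1CKO libraries above both Control libraries and 3 with both below, against 20.8% and 15.4% of all tested member genes. Their median of 0.40 was between 0.21 and 0.97 under each other scaling, and 0.22 without Control replicate 2. Herpud1, induced by stress of the endoplasmic reticulum, had 227 and 199 CPM in Isl1CKO libraries, against 181 and 162.8 CPM in Control libraries (0.30 ± 0.27). Calr, the chaperone calreticulin, named after its values were seen, had 119 and 95.6 CPM in Isl1CKO libraries, against 40.9 and 51.0 CPM in Control libraries (1.21 ± 0.40, edgeR adjusted p = 0.846).

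The other lists hold genes used in most cells, immediate early genes and ductal markers. Ribosomal protein genes had 19 of 21 above 0 and a median of 0.22, between 0.07 and 0.92 over the other scalings and the fit without Control replicate 2. Their lowest and highest values were -0.85 at Rps12 and 0.77 at Rps19. Chromatin regulators had 15 of 20 above 0, 5 of the 20 with both Isl1CKO libraries above both Control libraries and none with both below, against 20.8% and 15.4% of all tested member genes. Their median of 0.34 stayed above 0 in the same fits. Proteasome genes had 15 of 24 above 0 and a median of 0.13 (-0.06 without Control replicate 2), splicing genes 9 of 16 and 0.09 (-0.16), respiratory chain genes 11 of 21 and 0.00 (-0.32), immediate early genes 6 of 11 and 0.11 (-0.26), and cell cycle genes 6 of 15 and -0.12 (0.46 under the sizes that the authors' deposited table implies). Cyc1, cytochrome c1, had 167.4 and 131 CPM in Isl1CKO libraries, against 99.6 and 91.0 CPM in Control libraries (0.64 ± 0.33, edgeR adjusted p = 0.865). Sik1, a cyclic AMP induced kinase, had 68.5 and 73.8 CPM in Isl1CKO libraries, against 164 and 93.7 CPM in Control libraries (-0.85 ± 0.38, edgeR adjusted p = 0.850). Ductal markers had 2 of 7 above 0 and a median of -0.10 (0.37 under the same sizes).

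ISL1 values were found at a larger share of member genes than of genes without an H3K27ac promoter. The ISL1 table gives whole numbers per promoter window, 6000 bp wide for most genes, whose unit is not given in the sources used here, and a value of 1 or more is counted as present. Of the 7251 member genes in that table, 709 had a value at P9 (9.78%, 95% Wilson interval 9.12 to 10.5%) and 4375 at E14.5 (60.3%, 59.2 to 61.5%). Over all genes of the table the shares were 8.86% at P9 and 37.7% at E14.5, so the P9 share of member genes was near that of all genes. Genes without an H3K27ac promoter had 7.45% at P9 (7.02 to 7.90%) and 22.6% at E14.5 (21.9 to 23.3%). Genes of promoters with both marks had 18.4% at P9 (16.2 to 20.8%) and 66.8% at E14.5, both above the members, and genes of promoters of 3000 bp or more had 13.9% at P9 (10.5 to 18.1%) and 83.3% at E14.5 (78.8 to 87.0%). These intervals cover counting error only. A value at both stages was listed for 455 member genes. Most values were small, and a value of 5 or more was listed for 3 member genes at P9 and 236 (3.25%) at E14.5. The stages come from different numbers of libraries of unknown depth, so their shares are not compared.

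The share at E14.5 went with the level of acetylation at P9, and that at P9 hardly did. From the lowest to the highest quartile of CPM per kb among member genes, 45.8%, 56.0%, 64.7% and 72.2% had a value at E14.5, and 9.32%, 9.50%, 7.93% and 12.2% at P9. By CpG content, 45.8% of genes with 0 to 5 CpG dinucleotides in the window had an E14.5 value and 68.8% of those with more than 25, while the P9 shares were 10.7% and 9.61%. Genes with the letters CTAATG in the window had a value at E14.5 in 52.7% of 226 cases and those without in 62.6% of 5044. The same genes and windows enter each of these shares, so they are given as description. ISL1 was read in Control cells, while the H3K27ac levels average other libraries, of both genotypes at P9.

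**Figure D5:**
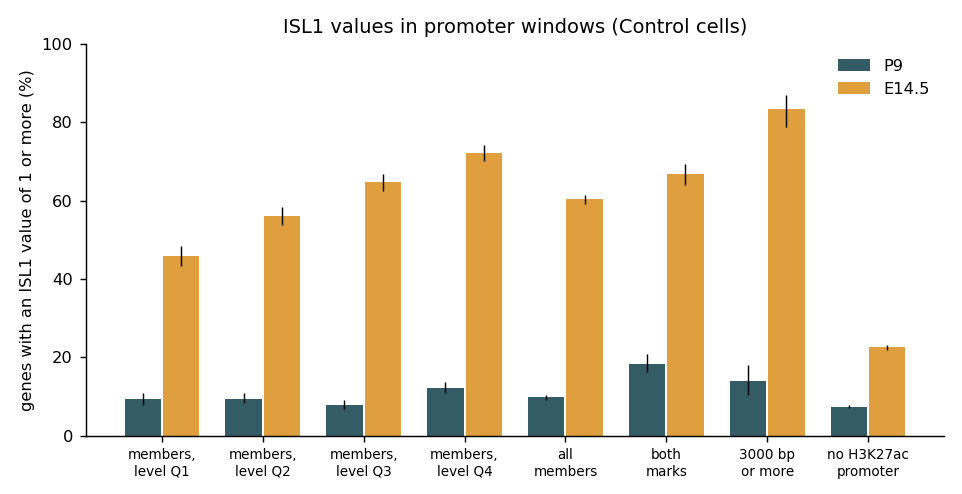
Share of genes with an ISL1 value of 1 or more in their promoter window (y axis, %, bars with 95% Wilson intervals) at P9 and at E14.5 in Control cells, for member genes by quartile of H3K27ac level per length (Q1 lowest), for all member genes and for 3 other sets of genes. The E14.5 share is 45.8% in the lowest and 72.2% in the highest quartile of members, and the P9 share lies between 7.93% and 12.2%.

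The genotype difference at members varied little with the ISL1 class of the gene. The median log2 fold change was 0.12 for the 452 tested member genes with a value at both stages, 0.03 for 251 with a value at P9 alone, 0.13 for 3907 with a value at E14.5 alone and 0.03 for 2576 with none. Genes with an E14.5 value also had higher levels (32.8 CPM per kb for E14.5 alone, 27.1 for none), and the fold change went with the level. Both Isl1CKO libraries lay above both Control libraries in 23.0% of genes with a value at both stages and in 19.3% of genes with none, and below in 14.2% and 16.8%. Over all tested member genes these shares were 20.8% and 15.4%. Of the 7 genes among the 12 with the smallest p that the ISL1 table lists, none had a value at P9, and Wdr18 (1), Pld1 (2) and Gle1 (2) had one at E14.5. The highest P9 value among member genes was 6 at Mtpap, a mitochondrial poly(A) polymerase, and the highest E14.5 value 133 at Hinfp, a histone gene regulator, with log2 fold changes of -0.93 ± 0.73 and 0.25 ± 0.66. Nkx2-2 had values of 1 at P9 and 7 at E14.5, Foxa2 of 2 at both stages, and Chgb of 0 at P9 and 4 at E14.5.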

How the data were processed

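CUT&Tag libraries of H3K27ac and H3K27me3 (2 per genotype and mark) and of ISL1 were analysed from the deposited tables. Per the submitters' processing notes, the tools were edgeR 4.0.16, ChIPseeker 1.38.0, Bowtie2 2.3.5.1, MACS2 2.2.6 and Picard 2.27.4, with genome build GRCm39. The authors deposited raw counts per region and library, their log2 fold change, a likelihood ratio score, and a p-value with its adjustment. The ISL1 values are deposited whole numbers of unstated unit. Each H3K27ac region had at least 50 counts in all. The number of per-sample columns not used was 0. Repeated rows (108 of 31587 for H3K27ac, 90 of 20176 for H3K27me3) were dropped. Chromosome labels in the deposited histone tables followed the alphabetical order of names and were relabelled, after which 100% of 18449 H3K27ac regions matched the ISL1 table, against 7.48% before.

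Counts were fitted over all 30036 H3K27ac regions kept by filterByExpr (228 members removed) with edgeR 4.0.16 (TMM, quasi-likelihood test, Benjamini-Hochberg adjustment, threshold 0.05) in R 4.3.3, and with DESeq2 1.42.0 as an alternative. The fit was tested on simulated data. CPM are TMM-scaled. p-values measure the spread between 2 pools per genotype. Members and gene lists were chosen with earlier results of these data known. Named are 6 members per direction with the smallest p and no overlap between genotypes, the 6 highest per kb of at least 500 bp, and per list the 2 strongest and, in 5 islet lists, the 2 with the smallest p. Other scalings, filters, limits of the rule, each library left out and a replicate block were tried. Replicate numbers showed no pairing (correlation of deviations 0.0504). Windows are RefSeq's, GRCm38.p6, the first listed per gene, motifs searched on both strands. Some genes of the lists are not reported by name here.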

Additional observations from a re-analysis of the deposited data

How the results depend on the processing

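The count of members passing edgeR was 0 in every fit except 3 with the authors' implied library sizes, 13 with DESeq2 in place of edgeR, and 0 to 441 when a library was left out. Members with both Isl1CKO libraries above numbered 4738 with the authors' sizes and 4090 to 5688 with a library left out, where 1 library is set against 2. Those below numbered 591 with the authors' sizes and 3666 to 4279 with a library left out. With 1 library against 2, regions separate more easily by ordering alone. The counts with a library left out are therefore not comparable with the 2551 above and 2010 below of the main fit. No share of all regions is given for these fits, so no change in members is read from them. The median log2 fold change of members was 0.67 with the authors' sizes and 0.0064 to 0.20 with a library left out. The count share difference ran between -0.279 and 5.36 points with a library left out. The share of genes with an ISL1 value at E14.5 was 57.6% for members under 2000 bp, and 3.25% at a value of 5 or more, which at P9 left 0.0414%. Of 63 fold changes of single members, 30 changed sign in at least 1 alternative. With a library left out, the range was -0.53 to 0.26 for Cpsf2, -0.15 to 0.092 for Klc1, -0.66 to 0.36 for Ero1b, -0.96 to 0.051 for Sytl4, -1.75 to 0.45 for Ins1, -0.79 to 0.36 for Rbp4, -0.18 to 1.46 for Slc7a2, -0.052 to 0.56 for Nkx2-2, -0.22 to 0.20 for Rims2, -0.15 to 0.22 for Vamp2, -0.029 to 1.98 for Pcsk2, -0.20 to 0.85 for Pdia3, -0.058 to 0.63 for Ier2, -0.062 to 0.31 for Rpl19, -0.0021 to 0.25 for Rpl13, -0.77 to 0.75 for Cycs, -0.46 to 0.19 for Psmd1, -0.46 to 0.55 for Hdac2, -0.24 to 0.13 for Anxa4, -0.39 to 2.11 for Cd79a, -0.092 to 0.50 for Erbb3, -0.48 to 0.095 for Isl1 and -0.038 to 0.59 for Hinfp. With the authors' sizes, values below 0 became 0.25 for Dis3l, 0.47 for Cpsf2, 0.60 for Klc1, 0.50 for Ube3a, 0.18 for Hexim2, 0.41 for Ero1b, 0.22 for Sytl4, 0.26 for Rbp4, 0.0064 for Ttr, 0.43 for Chgb, 0.31 for Cycs, 0.35 for Psmd1, 0.29 for Psmd11, 0.50 for Cdkn1b, 0.52 for Hdac2, 0.52 for Anxa4 and 0.37 for Isl1. Rims2 was -0.011 with DESeq2's size factors, -0.055 with library totals, -0.23 with loess offsets, -0.0072 with the block and -0.017 with DESeq2. Vamp2 was -0.018 with library totals and -0.19 with loess offsets, Rpl19 -0.074 and Rpl13 -0.063 with loess offsets, and Hdac2 0.052 with the block. With the replicate number as a block, 0 members were called and the median was 0.10. A rule without any H3K27me3 region gives no share of genes with one elsewhere, by construction. Several list medians changed sign without Control replicate 2. List medians without another single library are not given here, so the change cannot be assigned to that library. With loess offsets the medians of hormone secretion (-0.19), immediate early (-0.04) and respiratory chain genes (-0.11) were also below 0. The causes were not tested.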
